A study of Homo sapiens with 8 samples.

Results

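Cell division in human cells is run by a set of genes, many of whose messages peak in the G2 and M phases. Most of the genes described here build the centromere and kinetochore, form and move the spindle, time the entry into and exit from mitosis, or split the daughter cells. The set comprises 40 genes listed by name and 17 genes whose symbol is CENP followed by a single letter, which makes 57 of the 23346 genes in the deposited table. Genes with a further character in the symbol, such as CENPC1, were not included. The rule reads symbols only and no measured value.

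RNA was measured in hCMEC/D3, a human endothelial cell line that models the blood-brain barrier in vitro. As background, the line comes from brain microvessel cells immortalised with telomerase and a viral large T antigen, and it is a single clone that divides in culture. All 8 libraries were made from polyadenylated RNA of untreated cells as far as the labels say, and they form 1 group with no condition to compare. The labels do not say whether the replicates were separate cultures, so every spread and p-value below covers only the differences between these libraries, which may be technical. In such bulk RNA a smaller share of dividing cells and less message per dividing cell cannot be told apart.

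Total counts ran from 69388544 to 90205244 per library. All counts are even, and whether pairs of reads were counted as 2 or the values were doubled is not given in the sources used here. The halved totals, called read pairs below, ran from 34694272 to 45102622. Replicates 2, 7 and 8 stood apart from the other 5 libraries in how counts depended on transcript length. They had fewer counts for long and more for short transcripts, over all genes as well as over the mitotic genes, so the spreads of the 4 most variable genes, of the whole set and of the gene ratios are given with and without them. Of the endothelial markers, 8 of 8 were detected, with a summed level of 1735 to 3378 CPM, the counts scaled by library size, per library. Among mural markers 3 of 5 were detected, with a sum of 22.3 to 35.8 CPM, and DES and KCNJ8 were not. None of 4 astrocyte markers was detected (sum 0.820 to 1.04 CPM), AQP4 being at 0 in every library, and none of 4 microglial markers was (0.213 to 1.32 CPM). Of 4 epithelial markers only KRT19 was detected, in a sum of 3.68 to 4.92 CPM.

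As background, entry into mitosis is driven by CDK1 bound to B-type cyclins and opened by the CDC25 phosphatases. The kinetochore is assembled on centromeric chromatin marked by the histone variant CENPA, and it signals through the checkpoint kinases until every chromosome is attached. CDC20 then directs the anaphase-promoting complex to securin and cyclin B, separase cuts cohesin, and the central spindle guides the cleavage furrow.

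Many of these genes are known to be regulated over the cell cycle through 2 short promoter elements. One is the cell cycle genes homology region (CHR), read by the DREAM and MuvB complexes. The other is the CCAAT box, read by NF-Y. Promoter windows from RefSeq (GRCh38.p14), running from 250 bases before to 50 bases after the start, were matched to 45 of the 57 members by symbol. The letters TTTGAA, on either strand, were found in 27 of these 45 windows (60.0%) and in 15.4% of all 27305 promoters of the same length. A match within 50 bases of the start was found in 22 of 45 (48.9%) against 4.67% of all. CCAAT, on either strand, was found in 31 of 45 (68.9%) against 35.7%, and at least 2 such boxes in 37.8% against 11.3%. Both elements together were found in 48.9% of the members' windows and in 6.08% of all. GGGCGG, the GC box, again on either strand, was present in 73.3% of the members' windows against 44.6%. The share with TTTGAA was 17 of 21 among genes with long transcripts (81.0%) and 10 of 24 among those with short ones (41.7%). Among promoters of all detected genes with a length it was 10.3% of 4409 long and 8.61% of 4171 short ones, and the difference between long and short members was not tested. The other shares above, with those of CCAAT and GGGCGG, were set only against all promoters, whether or not the gene was detected. Their shares among detected genes alone were not counted. A match is a run of letters and was not tested for binding.

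The 150 bases before the start are shown for 7 genes on which the results below turn, 4 that carry the TTTGAA element close to the start and the 3 genes with the widest range of levels. Each runs 5′ to 3′ on the gene's strand, with capitals for TTTGAA and CCAAT or their reverse complements TTCAAA and ATTGG.
CCNB2 (chr15:59104996-59105145, plus strand): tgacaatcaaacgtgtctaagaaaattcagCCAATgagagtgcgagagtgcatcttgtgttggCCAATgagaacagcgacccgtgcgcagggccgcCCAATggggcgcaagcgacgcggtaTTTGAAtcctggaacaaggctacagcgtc
PLK1 (chr16:23678739-23678888, plus strand): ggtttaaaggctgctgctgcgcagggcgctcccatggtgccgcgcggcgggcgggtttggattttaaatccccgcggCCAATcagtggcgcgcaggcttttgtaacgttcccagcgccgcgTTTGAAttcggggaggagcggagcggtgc
MKI67 (chr10:128126424-128126573, minus strand): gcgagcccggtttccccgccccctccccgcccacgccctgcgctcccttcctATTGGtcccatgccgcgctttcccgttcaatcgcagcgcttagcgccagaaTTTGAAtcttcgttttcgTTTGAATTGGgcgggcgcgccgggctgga
BUB1B (chr15:40160919-40161068, plus strand): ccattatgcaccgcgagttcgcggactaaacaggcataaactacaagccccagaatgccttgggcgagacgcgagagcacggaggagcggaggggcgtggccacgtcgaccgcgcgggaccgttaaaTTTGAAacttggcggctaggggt
ASPM (chr1:197146670-197146819, minus strand): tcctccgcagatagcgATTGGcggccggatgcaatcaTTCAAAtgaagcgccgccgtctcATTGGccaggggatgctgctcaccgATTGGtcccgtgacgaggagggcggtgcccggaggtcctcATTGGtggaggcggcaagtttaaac
KIF14 (chr1:200620752-200620901, minus strand): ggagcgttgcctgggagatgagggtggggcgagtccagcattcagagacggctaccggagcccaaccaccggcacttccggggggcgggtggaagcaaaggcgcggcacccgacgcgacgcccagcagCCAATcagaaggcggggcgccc
CENPE (chr4:103198344-103198493, minus strand): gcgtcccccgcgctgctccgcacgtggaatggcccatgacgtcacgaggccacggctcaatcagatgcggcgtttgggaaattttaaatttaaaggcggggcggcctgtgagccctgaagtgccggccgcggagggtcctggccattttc
CCNB2 holds 3 CCAAT boxes upstream of 1 TTTGAA. In MKI67 there are 2 TTTGAA runs, and the second shares bases with an ATTGG box. ASPM has 4 ATTGG boxes and a TTCAAA, which lies between the first box and the second. KIF14 has a TTCAAA at position 2, just past the start and so outside the stretch shown. The CENPE stretch holds neither TTTGAA nor CCAAT on either strand, and other forms of the elements were not searched for.

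All 57 members were detected, meaning that each of the 8 libraries had a CPM of 1 or more, against 51.3% of all genes listed (11980). The fewest read pairs behind any member in any library were 294, for CENPP, which gives a counting error of 5.83%. The members took 0.960% ± 0.107 of all counts (SD, n = 8). Their share in replicates 1 to 8 was 1.08%, 0.897%, 1.04%, 1.04%, 0.991%, 1.01%, 0.840% and 0.781%. The lowest share, in replicate 8, had a 95% Wilson interval of 0.779 to 0.784%, and the highest, in replicate 1, one of 1.08 to 1.09%. These intervals cover counting error only, which is small at this depth, and not the spread between libraries. Without replicates 2, 7 and 8 the mean share was 1.03%. This share weighs each member by its counts. Members' median deviation from the gene mean (log2 CPM) was 0.13, 0.02, 0.05, 0.04, 0.01, -0.01, -0.04 and -0.16 in replicates 1 to 8. The lower share in replicate 2 thus does not mean that the typical member was low there.

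Levels of different genes are compared here only per length, as CPM per kilobase of the canonical transcript (RPKM). The median over the members was 42.6 RPKM, against 11.4 RPKM over 11650 detected genes with a length. Of the 57 members, 52 lay above that median and 38 above the upper quartile of 27.7 RPKM. The mean levels ran from 1.05 RPKM for CENPP to 188 RPKM for PTTG1. The plot of all 57 genes by role shows that most of the members lie to the right of the line for all detected genes.

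**Figure D1:**
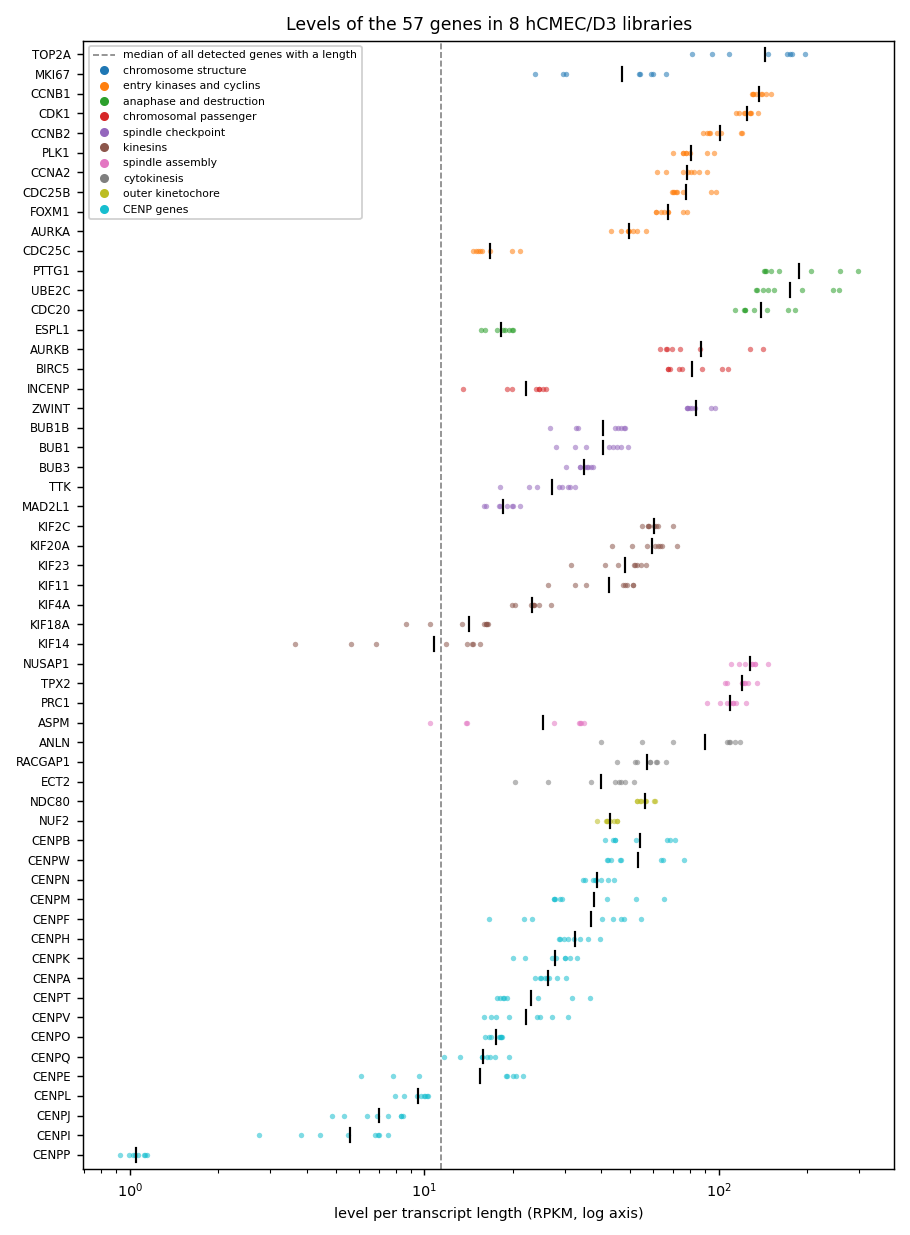
Level of each of the 57 mitotic genes per transcript length (RPKM, log axis) in the 8 hCMEC/D3 libraries, grouped by role. Points are libraries, black bars are means over the 8 libraries, and the dashed line is the median of all detected genes with a length (11.4 RPKM), which 52 of the 57 means exceed.

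Among the 9 entry kinases, cyclins and their regulators the median level was 77.9 RPKM. CCNB1, the main mitotic cyclin, had the highest level of the group, with 129.8, 137 and 151 RPKM in its lowest, median and highest library. Its partner kinase CDK1 ran from 114 over 125 to 136 RPKM, and CCNB2, the second B-type cyclin, from 88.2 over 96.2 to 120 RPKM. CCNA2, the A-type cyclin of S and G2 phase, ran from 61.5 to 91.6 RPKM. On this scale the 3 cyclins and CDK1 thus kept to narrow ranges, none with a highest value over 1.5 times its lowest. The median of that fold over all detected genes was 1.70. On the authors' log2 values, which adjust for length and GC content, CDK1 was less steady. Its SD was 0.19, against a median of 0.16 for all detected genes. The SDs of CCNA2, CCNB1 and CCNB2 were 0.07, 0.12 and 0.12. PLK1, the kinase that matures centrosomes and kinetochores, lay between 70.1 and 96.5 RPKM (median 77.6). CDC25B, which activates CDK1 at centrosomes, ran from 69.2 over 71.9 to 97.6 RPKM. FOXM1, the transcription factor that drives many G2 and M genes, ran from 61.1 over 66.2 to 78.3 RPKM. AURKA, the centrosomal Aurora kinase, ran from 43.1 over 49.5 to 56.5 RPKM. The lowest member of the group was CDC25C, a second CDK1 phosphatase, with 14.7, 15.6 and 21.1 RPKM.

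Anaphase and destruction genes had the highest group median, 157 RPKM over 4 genes. PTTG1 is securin, the inhibitor that is destroyed at anaphase, and had 143, 155 and 296 RPKM in its lowest, median and highest library. UBE2C, the ubiquitin-conjugating enzyme of the anaphase-promoting complex, had 134, 150 and 256 RPKM, and CDC20, its activator, 113, 128 and 182 RPKM. All 3 had their highest value in replicate 8 and their next highest in replicate 2. Their transcripts are short, below the median of 3351 nt of detected genes, and 57.8% of all short genes were highest in replicate 8. The share next highest in replicate 2 was not counted. On the authors' values PTTG1 and UBE2C were highest in replicate 2, and CDC20 was lowest in replicate 8. ESPL1, separase, was far lower, with 15.6, 18.6 and 20.0 RPKM.

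Both genes of chromosome structure have long transcripts. TOP2A, the topoisomerase that untangles sister chromatids, had 81.4, 159 and 196 RPKM. MKI67 encodes Ki-67, the proliferation marker that coats mitotic chromosomes, and had 23.8, 53.7 and 66.4 RPKM. In both genes replicates 2, 7 and 8 lay below all other libraries, a split that was not counted over all genes.

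In the chromosomal passenger complex the kinase AURKB had 63.2, 71.6 and 141 RPKM and BIRC5, survivin, 67.2, 74.1 and 108 RPKM. INCENP, the scaffold that binds both, had 13.5, 24.2 and 25.9 RPKM. AURKB and BIRC5 were highest in replicate 8, in which INCENP was lowest. The first 2 have short transcripts and INCENP a long one. Of all detected genes, 57.8% of short ones were highest and 50.8% of long ones lowest in that library. On the authors' values BIRC5 was again highest and INCENP lowest in replicate 8, but AURKB was highest in replicate 2.

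The 6 spindle checkpoint genes had a median of 37.6 RPKM. ZWINT, which docks the checkpoint machinery at kinetochores, was the highest, with 78.0, 80.6 and 97.5 RPKM, and MAD2L1, the inhibitor of CDC20, the lowest, with 15.9, 18.6 and 21.2 RPKM. BUB1, a checkpoint kinase, had 28.03, 43.1 and 49.0 RPKM, and the related BUB1B (BUBR1) 26.7, 45.0 and 48.1 RPKM. BUB3, the adaptor that both bind, ranged from 30.4 to 37.4 RPKM, and the checkpoint kinase TTK from 18.1 to 32.4 RPKM. The outer kinetochore pair NDC80 and NUF2, which hold microtubule ends, were steady in RPKM. NDC80 had 52.6, 55.5 and 60.7 RPKM and NUF2 38.7, 42.2 and 45.2 RPKM.

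The 7 kinesins had a median of 42.6 RPKM. KIF2C, a microtubule depolymerase at the centromere, was the highest, with 55.02, 59.3 and 70.2 RPKM, and KIF14, a motor of cytokinesis, the lowest, with 3.64, 12.9 and 15.5 RPKM. KIF23, the motor of the central spindle, had 31.6, 51.9 and 56.5 RPKM. The means of KIF20A, KIF11, KIF4A and KIF18A were 59.3, 42.6, 23.2 and 14.2 RPKM. Of the spindle assembly genes, NUSAP1, which bundles microtubules, had 111, 129.8 and 147 RPKM and TPX2, the activator of AURKA, 105, 121 and 135 RPKM. PRC1, the bundler of antiparallel microtubules, ranged from 91.2 to 124 RPKM. ASPM, the spindle pole protein mutated in primary microcephaly, was the lowest of these, with 10.4, 30.7 and 34.9 RPKM. In cytokinesis ANLN, the furrow scaffold, had 39.9, 107 and 118 RPKM and ECT2, the exchange factor that activates RhoA, 20.3, 45.1 and 51.6 RPKM. RACGAP1, the partner of KIF23 in centralspindlin, had 45.3, 58.5 and 66.3 RPKM.

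The 17 CENP genes had the lowest group median, 23.1 RPKM. CENPB, which binds a repeat of centromeric satellite DNA, was highest, with 41.2, 48.5 and 71.2 RPKM. CENPW, a histone-fold protein of the inner kinetochore, followed with 41.8, 46.4 and 76.1 RPKM, and its relative CENPT had 17.6, 19.0 and 36.6 RPKM. CENPN, which reads CENPA nucleosomes, had 34.6, 38.2 and 43.9 RPKM and its partner CENPL 7.97, 9.88 and 10.3 RPKM. CENPA itself had 23.8, 26.0 and 30.3 RPKM. CENPF, a large kinetochore and nuclear matrix protein, had 16.6, 41.9 and 54.4 RPKM, and CENPE, the kinetochore motor that moves chromosomes to the spindle equator, 6.08, 19.1 and 21.7 RPKM. CENPP, a member of the inner kinetochore network, was the lowest, with 0.928, 1.05 and 1.14 RPKM. Of the remaining CENP genes, means were 37.6 RPKM for CENPM, 32.5 for CENPH, 27.7 for CENPK, 22.1 for CENPV, 17.6 for CENPO, 15.8 for CENPQ, 7.03 for CENPJ and 5.61 for CENPI.

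The order of genes by level depends on the length used, since some canonical transcripts have long untranslated ends. With coding length in place of transcript length the median of the members was 68.7 RPKM and that of all detected genes 26.5 RPKM. BIRC5 moved from rank 14 to rank 1 of 57, BUB3 from 36 to 2 and MAD2L1 from 46 to 14. In 12 members the gene body overlaps another listed gene. The library kit does not mark strand and the use of strand in counting is not given in the sources used here, so some of their reads may belong to the neighbour. They are CCNA2, BUB1, BUB1B, PLK1, KIF20A, KIF18A, ANLN, FOXM1, CENPN, CENPO, CENPP and CENPT, and CENPP overlaps 7 other genes.

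The widest differences between replicates were found in mitotic genes with long transcripts. KIF14 had 113, 41.2, 107, 106, 86.3, 102, 50.03 and 26.5 CPM in replicates 1 to 8, a 4.26-fold difference between the highest and the lowest library. CENPE had 175, 66.9, 186, 170, 163, 162, 82.0 and 51.9 CPM, a 3.57-fold difference. ASPM had 371, 152, 379, 368, 301, 366, 151 and 113 CPM, a 3.34-fold difference. CENPF had 560, 238, 490, 480, 412, 450, 224 and 171 CPM, a 3.28-fold difference. In all 4 genes replicates 2, 7 and 8 lay below every other library, with no overlap. The share of all long genes with this split was not counted. Over all long genes the median deviation from the gene mean (log2 CPM) was also negative in replicates 2, 7 and 8, at -0.20, -0.10 and -0.30. ANLN (2.97-fold), MKI67 (2.78-fold), CENPI (2.74-fold), ECT2 (2.55-fold) and TOP2A (2.40-fold), all long, came next. Several short members were high where these were low. AURKB had 86.3, 159, 78.6, 83.1, 91.7, 82.2, 108 and 176 CPM, a 2.24-fold difference with the highest values in replicates 8, 2 and 7. CENPM (2.38-fold), PTTG1 (2.07-fold) and CENPT (2.07-fold) were likewise highest in replicate 8. In total 13 members (22.8%) differed more than 2-fold between their highest and lowest library, against 31.0% of all detected genes, and 9 of the 13 were long. The median fold was 1.61 for the members and 1.70 for all. Over the other 5 libraries, without replicates 2, 7 and 8, the median fold was 1.14 for the members and 1.19 for all detected genes, and 0 members differed more than 2-fold, as did only 0.910% of all genes. There KIF14 differed 1.31-fold, CENPE 1.14-fold, ASPM 1.26-fold and CENPF 1.36-fold.

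Genes whose spread exceeded that of genes of like abundance were called in edgeR by the fit of each gene to the trended dispersion (gof), with Benjamini-Hochberg adjustment over all 11980 detected genes. Of the 57 members 4 were called (7.02%), against 4.66% of all detected genes (558). By edgeR they were KIF14 (adjusted p = 0.00198), ASPM (0.00554), CENPE (0.00666) and CENPF (0.0356), and all have long transcripts. At an unadjusted p under 0.05 there were 8 members, against 13.1% of all genes. With the authors' values, which adjust for length and GC content, limma called 0 members and 0 genes in all, while 1 member and 568 genes were under an unadjusted p of 0.05. Without replicates 2, 7 and 8 edgeR called 0 members and 297 of 12275 genes (2.42%), with 1 member at an unadjusted p under 0.05. The common coefficient of variation then fell from 24.0% to 8.76%. CENPF, the weakest of the 4, passed 0.05 no longer when replicate 1, 3, 4, 7 or 8 was left out (adjusted p 0.0531 to 0.125). With each library's smooth trend on length removed, ANLN and KIF14 were called, against 5.21% of all genes, and with trends on length and GC content removed, INCENP and KIF14, against 6.52%. These 2 of 57 are a smaller share than that of all genes.

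KIF14 lies at chr1:200520625-200589862 (hg19, minus strand, 30 exons in the canonical transcript of 7291 nt). ASPM lies at chr1:197053257-197115824 (minus strand, 28 exons, 10863 nt), CENPE at chr4:104026963-104119566 (minus strand, 49 exons, 8541 nt) and CENPF at chr1:214776532-214837914 (plus strand, 20 exons, 10290 nt). All 4 have transcripts low in GC, from 35.1% in CENPE to 40.8% in CENPF, where the median of detected genes was 48.4%.

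Members were split at the median canonical transcript length of all detected genes, 3351 nt, into 25 long and 32 short ones. The shortest was PTTG1 at 715 nt and the longest MKI67 at 12716 nt. For each gene the deviation of log2(CPM + 0.1) from its mean over the 8 libraries was taken, and the median deviation of short members was subtracted from that of long members in each library. This difference of log2 values was 0.25, -0.37, 0.30, 0.28, 0.16, 0.30, -0.23 and -0.76 in replicates 1 to 8. Over all detected genes it was 0.29, -0.42, 0.29, 0.27, 0.15, 0.28, -0.19 and -0.65. The members thus followed all genes in sign in all 8 libraries, with replicates 2, 7 and 8 negative and the rest positive. On the authors' values the difference for the members was 0.06, -0.15, 0.08, 0.09, 0.08, 0.05, -0.14 and -0.19. The same for all genes was 0.03, -0.04, 0.02, 0.02, 0.02, 0.02, -0.02 and -0.06. The signs were unchanged on this scale and the sizes smaller, in the members less so than over all genes.

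**Figure D2:**
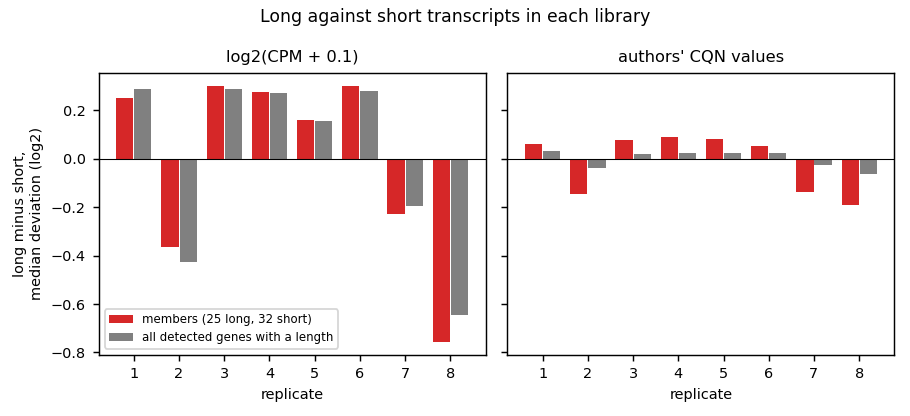
Median deviation of long minus that of short transcripts (log2) in each of the 8 libraries, for the 57 mitotic genes (red, 25 long and 32 short) and all detected genes with a length (grey). Bars start at 0, the left panel uses log2(CPM + 0.1) and the right panel the authors' values, and replicates 2, 7 and 8 are below 0 in both.

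In replicate 8 the lowest value of the 8 libraries was found for 19 of the 25 long members (76.0%), against 50.8% of all long genes. The long members that were not lowest there were CENPN, CENPO, CENPP, FOXM1, KIF4A and TPX2. Of the short members 13 of 32 (40.6%) were highest in replicate 8, against 57.8% of all short genes. Over all lengths, 28 members were lowest in replicate 8 (49.1%, against 31.1% of all detected genes) and 26 were highest in replicate 1 (45.6%, against 16.4%). On the authors' values 10 of 25 long members (40.0%) were lowest in replicate 8, against 28.7% of long genes, and 2 of 32 short members (6.25%) were highest there, against 28.7% of short genes. On that scale replicate 7 was the lowest library for 20 members (35.1%, against 15.0% of all) and replicate 8 for 19 (33.3%, against 23.5%). The highest was replicate 2 for 19 members (33.3%, against 13.5%) and replicate 1 for 18 (31.6%, against 10.2%). These counts describe single libraries and were not tested.

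**Figure D3:**
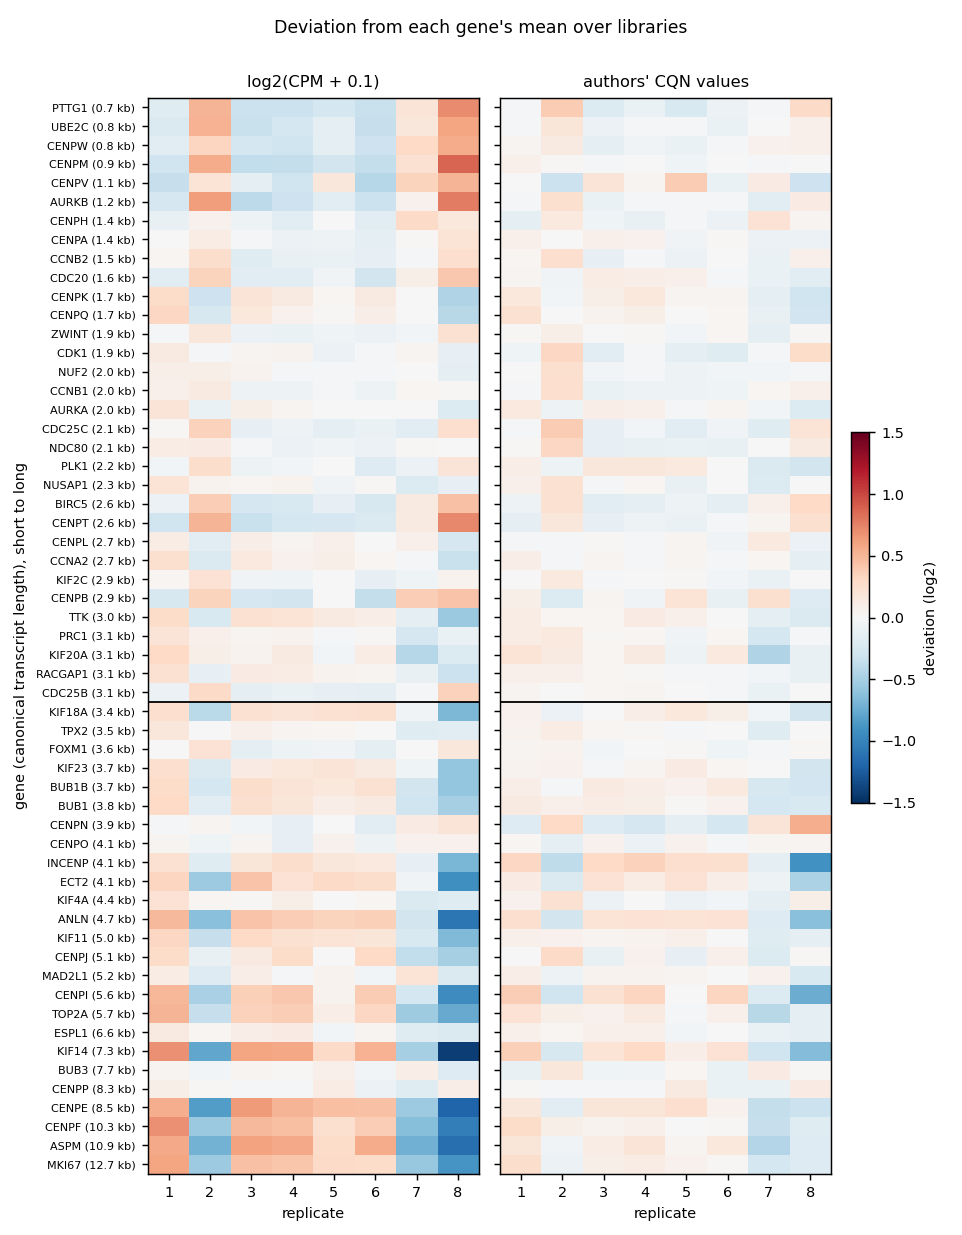
Deviation of each mitotic gene from its mean over the 8 libraries (log2, colour), with genes ordered from the shortest (top) to the longest transcript and a line at 3351 nt. In log2(CPM + 0.1) (left) long genes such as KIF14 and CENPE are low in replicates 2, 7 and 8 and short ones such as AURKB and CENPM are high in replicates 2 and 8, and the deviations are smaller on the authors' values (right).

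GC content moved with the same libraries. In replicate 8 the 20 long members of low GC had a median deviation of -0.67 (log2 CPM), against -0.47 for all long genes of low GC. The 11 short members of high GC, among them AURKB, UBE2C and PLK1, had 0.43, against 0.52 for all such genes. For the 21 short members of low GC it was -0.12, against 0.05. The 5 long members of high GC had 0.07, against 0.02, and among these INCENP was the lowest, at -0.68. The parts of length and GC content in the members' deviations were not separated further than by the alternatives of removing each library's trend.

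**Figure D4:**
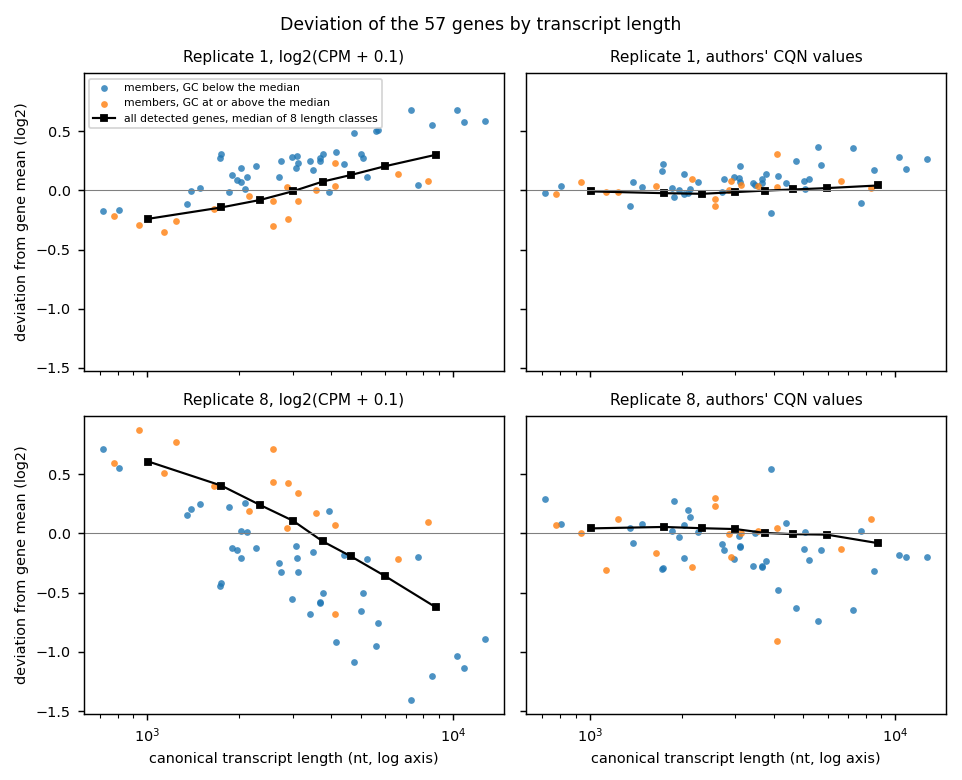
Deviation from the gene mean (log2) against canonical transcript length (nt, log axis) for the 57 mitotic genes, coloured by GC content, in replicate 1 (top) and replicate 8 (bottom), on log2(CPM + 0.1) (left) and the authors' values (right). Black squares are medians of all detected genes in 8 length classes, which in replicate 8 run from 0.61 in the shortest to -0.62 in the longest class on the left and from 0.04 to -0.08 on the right.

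The median SD of the members over the 8 libraries was 0.23 on log2 CPM, against 0.28 for all detected genes. It was 0.20 against 0.22 with each library's length trend removed, 0.15 against 0.17 with length and GC trends removed, and 0.13 against 0.16 on the authors' values. Over replicates 1, 3, 4, 5 and 6 alone it was 0.07 against 0.10 on log2 CPM. On the authors' values, FOXM1 (SD 0.04), CENPM (0.04) and CDC25B (0.05) were the steadiest members and INCENP (0.45), CENPI (0.39), KIF14 (0.36), ANLN (0.33) and CENPN (0.30) the most variable. CDK1 and NDC80, each with an SD of 0.08 on log2 CPM, had 0.19 and 0.15 on the authors' values. Over replicates 1, 3, 4, 5 and 6 alone the median SD on that scale was 0.06, against 0.09 for all genes, with 0.04 for INCENP, 0.15 for CENPI, 0.10 for KIF14, 0.02 for ANLN and 0.05 for CENPN. INCENP had 7.22, 6.52, 7.20, 7.25, 7.16, 7.15, 6.76 and 6.00 in replicates 1 to 8 on that log2 scale. CENPI had 6.04, 5.37, 5.89, 5.99, 5.66, 5.99, 5.46 and 4.93. Both stayed below every other library in replicates 2, 7 and 8. CENPN went the other way, with 7.22, 7.71, 7.21, 7.16, 7.28, 7.15, 7.60 and 7.96, so that replicates 2, 7 and 8 lay above every other library. The share of all genes with either split on this scale was not counted.

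Levels of partner genes were set against each other within each library as log2 ratios of RPKM (pseudocount 0.1), and tested by an exact permutation of signs (two-sided) across the 8 libraries, adjusted over 14 pairs. The smallest exact p that the 256 sign patterns allow is 0.00781, and 12 of the 14 pairs reached it (adjusted p = 0.00911), each with the same sign in 8 of 8 libraries. The pairs were chosen with earlier results known. Any 2 genes whose ratio keeps the same sign in 8 of 8 libraries reach this p, and pairs of other genes were not tested. The number passing is therefore not read as a trait of partner genes. A ratio of levels depends on the lengths used, which are the same in every library. CCNB1 exceeded CCNB2 by 0.46 ± 0.12 (log2, SD, n = 8) and CDK1 lay below CCNB1, at -0.14 ± 0.11. The second of these turned to 0.30 with coding lengths. CDC25B exceeded CDC25C by 2.21 ± 0.08. AURKA lay below AURKB at -0.74 ± 0.55, ranging from -1.71 in replicate 8 to -0.26 in replicate 3, and below its activator TPX2 at -1.26 ± 0.08. Without a length or on the authors' values the AURKA/AURKB ratio no longer passed, at -0.03 and -0.15, nor with coding lengths, at -0.26. The spread of the Aurora kinase ratio came with replicates 2, 7 and 8. Over the other 5 libraries it was -0.39 ± 0.12 (SD, n = 5), from -0.57 to -0.26, and on the authors' values it ran from -0.48 to 0.05 over all 8. The AURKA/TPX2 ratio over those 5 libraries was -1.27 ± 0.02.

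INCENP lay below AURKB at -1.93 ± 0.76, from -3.38 in replicate 8 to -1.36 in replicate 3, though at -0.21 without a length this was not called. CDC20 exceeded its inhibitor MAD2L1 by 2.89 ± 0.36, which came to -0.05 with coding lengths (not called), as the MAD2L1 transcript of 5227 nt has only 615 coding bases. PTTG1 exceeded its target ESPL1 by 3.31 ± 0.52, from 2.86 in replicate 4 to 4.24 in replicate 8, and by 0.10 (not called) without a length. NDC80 exceeded NUF2 by 0.39 ± 0.07, and by 0.04 with coding lengths, where it was not called. KIF23 lay below RACGAP1 at -0.26 ± 0.13, and at -0.02 without a length, where it was not called. CENPN exceeded CENPL by 2.01 ± 0.22 and CENPT lay below CENPW at -1.21 ± 0.14. The last turned to 0.46 without a length and to 0.38 on the authors' values. Over the 5 libraries other than replicates 2, 7 and 8, INCENP/AURKB was -1.44 ± 0.09, CDC20/MAD2L1 2.69 ± 0.08, PTTG1/ESPL1 2.95 ± 0.09 and CENPN/CENPL 1.87 ± 0.03 (SD, n = 5), with no test made over 5 libraries.

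In 2 pairs the difference per transcript length did not pass. BIRC5 against AURKB was -0.05 ± 0.19 (SD, n = 8, exact permutation p = 0.492, adjusted p = 0.530), with 5 of 8 libraries positive and a range of -0.39 to 0.11. BUB1 against BUB1B was -0.00 ± 0.06 (exact permutation p = 0.875, adjusted p = 0.875), between -0.09 and 0.09 in every library. A ratio near 0 per length does not show equal levels, as BIRC5 exceeded AURKB by 0.99 without a length, by 0.87 on the authors' values and by 2.27 with coding lengths, and passed the same exact permutation test in all 3 cases (adjusted p = 0.0122, 0.00841 and 0.0109). BUB1 exceeded BUB1B by 0.09 on the authors' values, which also passed (adjusted p = 0.00841, exact permutation test).

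A list of 64 other mitosis genes, with condensin, further kinetochore and spindle genes, was set beside the members. All 64 were detected, with a median of 27.6 RPKM, and 28 were long. The test for spread called 2 of the 64, a share below the 4.66% of all detected genes. They were CASC5, the KNL1 scaffold of the outer kinetochore (adjusted p = 1.24e-06), and KIF20B, a kinesin of cytokinesis (adjusted p = 0.0128, edgeR). CASC5 ranged from 24.7 to 151 CPM and KIF20B from 47.5 to 182 CPM, and both have long transcripts. In replicate 8 the median deviation of these other genes was -0.55 for the long and 0.05 for the short ones (log2 CPM). The members' medians there were -0.58 and 0.17.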

How the data were processed

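The values are counts of reads per gene and log2 expression values for 8 libraries of hCMEC/D3 cells. Per the file headers, the authors deposited raw counts and CQN-normalised values, and the latter are read as log2 from their range. Conditional quantile normalisation (CQN) corrects each library's trends on the length and GC content of genes, and its parameters are not given in the sources used here. CASAVA 1.9, TopHat2 2.0.6, HTSeq and hg19 are named by the submitters' processing notes. All 186768 counts are even, so counting errors were computed on halved counts, called read pairs. Intervals on shares (95% Wilson) cover counting error only.

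CPM values used TMM-scaled library sizes (edgeR 4.0.16, R 4.3.3). Gene spread was judged by an intercept-only edgeR model with the gof function, at an adjusted p under 0.05. Alternatives used DESeq2 1.42.0 size factors or its fitted trend, limma 3.58.1 on the authors' log2 values, and spline trends (4 degrees of freedom) on log2 length, or on length and GC, removed per library as offsets. Lengths, GC content and exon numbers come from canonical transcripts of GENCODE annotation lifted to GRCh37. They were matched by symbol for 19467 genes, by synonym for 2050 and not for 1829, and all 57 members matched by symbol. Annotated starts were 1 above the table's for 5738 genes and equal to them for 652, and table starts were therefore taken as 0-based and are printed 1-based.

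The members, role groups, gene pairs and lists were chosen with earlier results of these data known. The lowest, median and highest library were given for a set of central genes, the highest and lowest gene of each role, genes called for spread, and both genes of each pair, with all 8 values for the genes called and a few others picked after their values were seen (AURKB, INCENP, CENPI, CENPN). Other members and lists are given by ranges or means. The data hold 1 group, so no test between conditions was made. Other columns of per-sample values numbered 0.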

Additional observations from a re-analysis of the deposited data

Results flagged for a closer look

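Of 73 values examined for a library standing apart, 1 was noted, where chance gives about 1 in 20. The AURKA/TPX2 log2 ratio was -1.09 in replicate 7, its highest value, against a mean of -1.26, and the gap to the next library was 0.575 of the whole range, above Dixon's 95% critical value. On log2 CPM no single member had such a library. On the authors' values 5 members did: NUF2 (gap 0.77 of the range, highest in replicate 2), KIF23 (0.616, lowest in replicate 8), CDC25B (0.566, lowest in replicate 7), KIF2C (0.541, highest in replicate 2) and TPX2 (0.529, lowest in replicate 7). The share of all detected genes with such a gap was not counted on either scale.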

How the results depend on the processing

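All 57 members stayed detected at a CPM of 0.5 or 5, at 10 counts, and with any single library left out. The 4 members called for spread became 13 with DESeq2's fitted trend, under which 23.5% of all genes were called, 2 with each library's length trend removed (5.21% of all genes), 2 with length and GC trends removed (6.52%), 0 by limma on the authors' values and 0 without replicates 2, 7 and 8 (2.42%). Without replicates 2 and 8 alone the same 4 were called, CENPF at an adjusted p of 0.0110 (edgeR). Leaving out 1 library at a time gave 3 to 4 calls. The range over libraries of the long-minus-short difference, 1.06 on log2 CPM, was 0.28 on the authors' values, 0.34 with length trends removed and 0.28 with length and GC trends removed. The median level of the members, 42.6 RPKM, was 68.7 with coding lengths. Log2 ratios that changed sign were CDK1/CCNB1 (0.30) and CDC20/MAD2L1 (-0.052) with coding lengths, CENPT/CENPW without a length (0.46) and on the authors' values (0.38), and, among pairs that had not passed, BUB1/BUB1B on the authors' values (0.094) and BIRC5/AURKB without a length (0.99), on the authors' values (0.87) and with coding lengths (2.27). The BUB1/BUB1B ratio, close to 0, was also positive without a length (0.033) and without replicate 3, 5 or 6 (0.0012 to 0.0095), and did not pass there. BIRC5/AURKB was 0.050 without replicates 2, 7 and 8, where ratios were not tested. The number of pairs passing ran from 9 to 13 of 14. Causes other than the length used were not tested. Libraries could not be paired with each other because they form 1 group, and only the gene ratios were paired, within each library. Removing length and GC trends together, coding lengths, and leaving out replicates 2 and 8, or 2, 7 and 8, were chosen after seeing the data.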
